A study of Mus musculus with 5 samples.

Results

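The genes described here encode the subunits of the endoplasmic reticulum (ER) membrane protein complex, EMC. The 10 members are Emc1, Emc2, Emc3, Emc4, Mmgt1 (also called Emc5), Emc6, Emc7, Emc8, Emc9 and Emc10, out of 23185 named genes on the array. Each was found by its gene symbol, and each had 1 probe set. They were followed in 5 clones of Ocy454, a mouse cell line with osteocyte features. Of 37 clones screened, 12H and 15H had been kept for high Sost and 4L, 9L and 24L for low Sost, and RNA was taken from untreated cells after 7 days at 37 °C. Sost encodes sclerostin, the Wnt inhibitor that osteocytes secrete. All 5 clones come from the same parent line and share its genotype as far as the labels tell, and each was measured on 1 array, so the spread within a group is the spread between clones. The question put to the data was whether Emc2 differs between the groups alone or together with the rest of its complex.

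EMC places membrane proteins into the ER bilayer. It acts on tail-anchored proteins with weakly hydrophobic anchors, and on the opening segment of many multipass proteins such as receptors and transporters. Emc3, a relative of the bacterial insertase YidC, and Emc6 form the membrane core that moves a segment into the bilayer. Emc2 is the helical scaffold on the cytosolic face and holds Emc8 or its paralogue Emc9. Emc1, Emc7 and Emc10 have domains in the ER lumen. Cells that secrete matrix, such as osteoblasts and osteocytes, pass much of their output through this compartment.

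The complex was chosen by the measured difference of Emc2. That gene was among the 3 genes with the smallest adjusted p over the whole table in the comparison of high-Sost with low-Sost clones (adjusted p = 0.0856 in limma), and so that comparison is given below as a description for every subunit and supports nothing further. At an adjusted threshold of 0.05 limma called 0 of all genes (0%), while 1340 (5.78%) had an unadjusted p under 0.05. An unmoderated equal-variance model placed 1 gene under the adjusted threshold, and it was not a subunit. Among the subunits likewise 0 of 10 passed either form, and 3 (Emc2, Emc4 and Emc10) were under an unadjusted 0.05 in limma. The adjusted p of the 9 subunits other than Emc2 ran from 0.572 to 1. Values below are log2 expression after RMA normalization, and differences are the mean of clones 12H and 15H minus the mean of 4L, 9L and 24L, with limma's moderated standard error (SE).

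Labels and cell type were checked on a few genes. Sost read 4.08 and 3.92 in 12H and 15H against 3.78 to 3.91 in the low-Sost clones, a difference of 0.14 (SE 0.07). It was dim in every clone, at about the array median or below, and 15H stood at 3.919 against 3.913 in 24L. The array values of Sost thus bear out the labels only weakly. Dmp1 and Phex, which mark osteocytes, read 5.75 to 7.45 in the high-Sost clones and 2.08 to 3.17 in the others, whereas Mepe and Fgf23 read 2.79 to 3.29 throughout. Pdpn, a marker of early osteocytes, went the other way, at 8.35 and 8.06 in 12H and 15H against 8.97 to 9.20 (difference -0.92, SE 0.13). Osteoblast markers had higher means in the high-Sost clones, but without the tight groups of Emc2. Of 6 measured, 4 (Bglap, Alpl, Ibsp and Sp7) were higher without overlap, beside 8.26% of all genes, while Col1a1 and Col1a2 overlapped. The median difference was 2.16. Alpl, Ibsp and Sp7 were by far lowest in 4L, and the SEs of their differences were 1.73, 2.64 and 1.91. The osteoblast factor Sp7 read 9.98 in 12H and 9.41 in 15H, against 2.68 (4L), 7.05 (24L) and 8.004 (9L) in the low-Sost clones. The part of this difference in osteoblast markers in the values of the subunits was not tested. The 4 leukocyte, 4 endothelial and 4 adipocyte markers measured read between 1.78 and 4.19 in every clone. Array medians lay between 4.04 and 4.08.

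Emc2, the cytosolic scaffold, read 10.12 in 4L, 10.10 in 9L and 10.06 in 24L, and 9.05 in 12H and 9.08 in 15H. The groups do not overlap, and clones of a group lie close together. The low-Sost clones spanned 0.07 and the high-Sost clones 0.02, while the gap between the groups was 0.98. The low-Sost mean was 10.09 ± 0.03 (SD, n = 3) and the high-Sost mean 9.07 ± 0.02 (SD, n = 2). The difference was thus -1.03 (SE 0.03), which is 2.04-fold less in 12H and 15H. Among the 7807 genes with a mean of 6 or more, called expressed here, Emc2 stood at the 1.81 percentile of the difference and at the 4.4 percentile of the span within the low-Sost clones. Neither percentile is independent of the choice of Emc2 by its small p, which favours a wide difference and a small spread within groups. In RNA from whole cultures, fewer cells with a transcript and less of it per cell cannot be told apart. Clone 4L, the clone with little Sp7, read with the other low-Sost clones for Emc2.

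**Figure D1:**
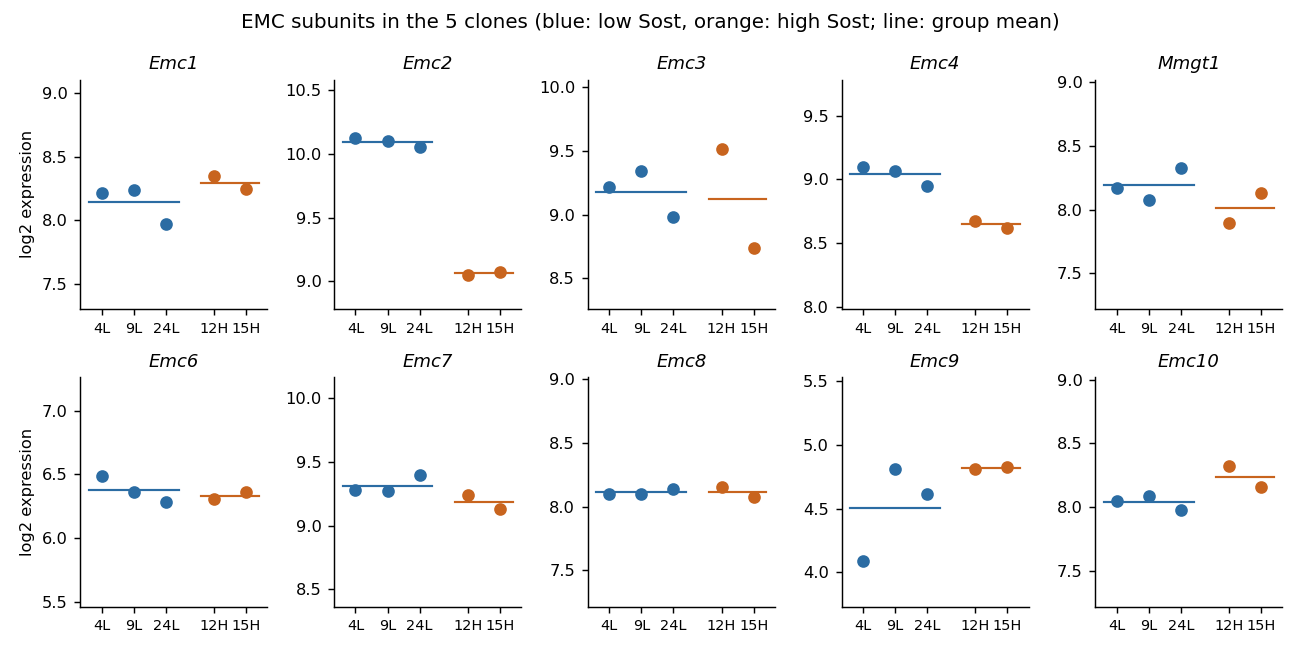
Log2 expression (vertical axis) of each EMC subunit in the low-Sost clones 4L, 9L and 24L (blue) and the high-Sost clones 12H and 15H (orange), with a line at each group mean and the same span of axis in every panel. Emc2 lies near 10.1 in the low-Sost clones and near 9.1 in the high-Sost clones, and in no other panel are the groups as far apart.

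Emc8 and Emc9, the alternative partners that dock on Emc2, did not follow it. Emc8 read 8.10 in 4L and 9L, 8.14 in 24L, 8.16 in 12H and 8.07 in 15H, a span of 0.08 that put it at the 1.4 percentile of expressed genes. Its difference was 0.00 (SE 0.04). Emc9 was the dimmest subunit, at 4.09 in 4L, 4.81 in 9L, 4.61 in 24L, 4.81 in 12H and 4.82 in 15H. That is above the 95th percentile of 1354 olfactory and vomeronasal receptor genes in each clone (3.37 to 3.56), a class used here as a gauge of dim signal. The difference of Emc9 was 0.32 (SE 0.25), with 9L and 12H level and 4L apart from the rest, and it was 0.11 without 4L and 0.13 with chromosome medians subtracted. As measured, neither paralogue had a lower mean in the clones with low Emc2, though the difference of Emc8 was -0.17 with chromosome medians subtracted.

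The members of the insertase core had differences close to 0. Emc3 read 9.22, 9.34 and 8.98 in 4L, 9L and 24L, and 9.51 in 12H against 8.74 in 15H. The high-Sost clones thus held both the highest and the lowest value, and their gap of 0.77 stood at the 95.6 percentile of expressed genes. The difference of Emc3 was -0.06 (SE 0.29), and it was -0.44 without 12H, 0.33 without 15H, 0.02 without 9L and -0.15 without 24L. Emc3 lies on chromosome 6, whose expressed genes had a median deviation from their own mean of 0.30 in 12H and -0.12 in 15H. With chromosome medians subtracted the difference of Emc3 was -0.18 (SE 0.14), and with the median of its 20 nearest expressed genes subtracted (local medians) -0.16 (SE 0.13). Emc6 read 6.49, 6.36 and 6.29 in the low-Sost clones and 6.30 and 6.36 in the high-Sost clones, which overlap (difference -0.05, SE 0.07). It was 0.01 without 4L, -0.02 without 12H, -0.08 without 15H, -0.09 without 24L and -0.17 with local medians subtracted.

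Mmgt1, a small membrane subunit, read 8.17 in 4L, 8.08 in 9L and 8.32 in 24L, and 7.90 in 12H and 8.13 in 15H. The groups overlap, and the difference was -0.18 (SE 0.12). It was -0.06 without 12H, -0.29 without 15H and -0.11 without 24L. It was -0.02 with the median shift of each chromosome subtracted and 0.0009 with that of its neighbouring genes subtracted. The X chromosome, which carries it, had a median deviation of -0.32 in 12H, the clone in which Mmgt1 was lowest. Mmgt2, a paralogue outside the list of members, read 7.35, 7.53 and 7.90 in 4L, 9L and 24L and 7.86 and 7.94 in 12H and 15H, which overlap (difference 0.31, SE 0.19).

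Emc4, a membrane subunit, was the other one whose groups stood clearly apart in the direction of Emc2. It read 9.10 in 4L, 9.07 in 9L and 8.95 in 24L, and 8.67 in 12H and 8.62 in 15H. The lowest low-Sost clone stood 0.28 above the highest high-Sost clone. The difference was -0.39 (SE 0.06), or 1.31-fold less in the high-Sost clones, and it did not pass over all genes (adjusted p = 0.572 in limma). It lay between -0.43 and -0.35 in all 14 alternative settings run. Emc4 sits on chromosome 2, where expressed genes had a median difference of 0.03.

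The subunits with domains in the lumen differed little. Emc1, the largest of these proteins, read 8.21, 8.24 and 7.97 in 4L, 9L and 24L and 8.35 and 8.24 in 12H and 15H. Its groups were parted by only 0.0033 (difference 0.15, SE 0.11), and the difference was 0.07 without 24L, 0.10 without 12H and 0.04 with local medians subtracted. Emc10, which also has a secreted form, read 8.05, 8.09 and 7.98 in the low-Sost clones and 8.32 and 8.16 in the high-Sost clones, a difference of 0.20 (SE 0.07) toward higher values, opposite to Emc2. It was 0.12 without 12H and 0.28 without 15H. Emc7 read 9.28, 9.27 and 9.39 against 9.24 and 9.13, with groups parted by 0.03 (difference -0.13, SE 0.06, and -0.07 without 15H).

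Over the complex, 6 subunits differed negatively and 4 positively, and the median difference was -0.05, beside 0.00 over all genes. Without Emc2 the median of the other 9 was -0.05 and their median size was 0.15, against 0.18 for expressed genes. Without Emc2 and Emc4 the remaining 8 lay between -0.18 and 0.32. Groups did not overlap for 6 of 10 subunits, beside 16% of all genes. Of these 3 were higher in the high-Sost clones (8.26% of all genes) and 3 lower (7.75%). Of the 9 expressed subunits 5 had no overlap, beside 26.4% of expressed genes. Nothing is read from these shares, since the comparison chose the complex and the gaps of Emc1 and Emc9 (0.0013) are far below the spread between clones. Over the 5 clones 7 of 10 subunits stayed within 1.5-fold, as did 50.3% of expressed genes, and the median span of the expressed subunits was 0.37 against 0.58 for expressed genes.

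Clone by clone, the mean deviation of the 9 other subunits from their own means was -0.02 in 4L, 0.06 in 9L, -0.02 in 24L, 0.05 in 12H and -0.06 in 15H. The deviation of Emc2 was 0.44, 0.42 and 0.37 in the low-Sost clones and -0.63 and -0.61 in the high-Sost clones. The mean of the 9 others therefore showed no step between the groups, and 12H, where Emc2 was lowest, had the second highest mean of the others.

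The members' chromosomes played no part in choosing them. Emc2 lies on chromosome 15, and no other subunit does. Of 347 expressed genes on chromosome 15, 307 (88.5%) read lower on average in the high-Sost clones and 44.4% were lower without overlap, beside 13.5% of all expressed genes. The chromosome's median difference of -0.33 was the lowest of the 20 chromosomes compared, the next being -0.17 for the X chromosome. By clone the median deviation of chromosome 15 was 0.23 in 4L, 0.22 in 9L, -0.05 in 24L, -0.30 in 12H and -0.09 in 15H. The clones thus fall in the same order for the chromosome as for Emc2, but with another spacing. Part of that order rests on small steps, since 4L and 9L are nearly level in both and 12H and 15H nearly level for Emc2. Clone 24L lies near 15H for the chromosome and with 4L and 9L for Emc2.

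The difference of Emc2 was larger than that of its chromosome. It ranked 19 of 347 from the lowest, and the middle of the chromosome's genes lay between -0.52 and -0.13 (quartiles). With each chromosome's median deviation subtracted in each clone the difference of Emc2 was -0.70 (SE 0.13), and with the median of its 20 nearest expressed genes subtracted it was -0.66 (SE 0.12), against -1.03 as measured. All of these are values of the comparison that chose Emc2, and no test is drawn from them.

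**Figure D2:**
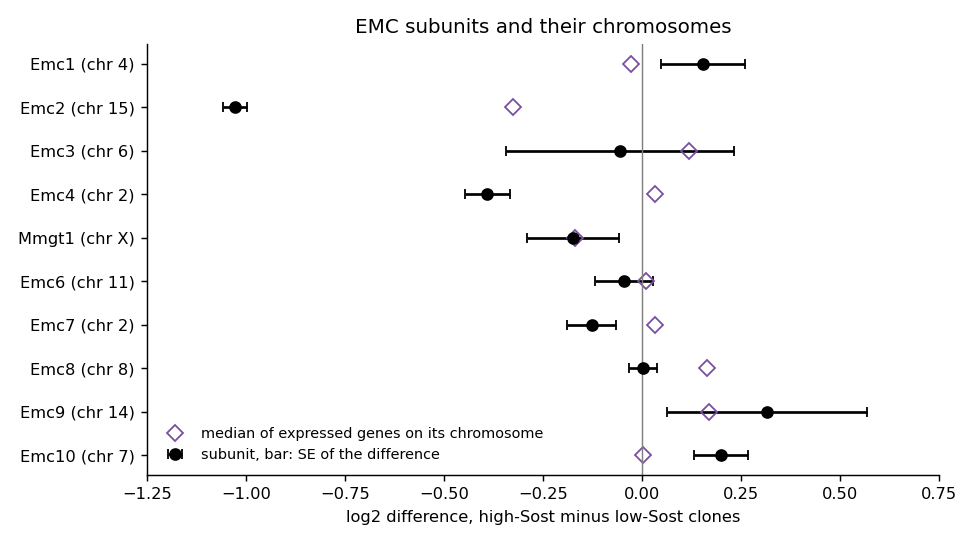
Log2 difference, high-Sost minus low-Sost clones (horizontal axis), of each EMC subunit with its SE (black), and the median difference of expressed genes on the chromosome that carries it (open diamonds). Emc2 stands at -1.03 with its chromosome at -0.33, Emc4 at -0.39 with its chromosome at 0.03, and the other 8 subunits between -0.18 and 0.32.

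Genes next to Emc2 were mostly lower too. Of its 20 nearest expressed genes, 10 on each side, 19 had a negative difference, with a median of -0.37. Without overlap 10 were lower, beside 44.4% of expressed genes on chromosome 15 and 13.5% of all expressed genes. Around the other subunits 6 to 14 of the 20 nearest expressed genes had a negative difference, with medians from -0.15 to 0.15. On the side before Emc2 lie Eif3e, a subunit of a translation initiation factor, and Rspo2, a secreted amplifier of Wnt signalling. Eif3e read 8.85, 8.47 and 8.57 in 4L, 9L and 24L and 8.13 and 7.92 in 12H and 15H (difference -0.60, SE 0.15), without overlap.

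Rspo2 read 7.00, 6.64 and 7.89 in the low-Sost clones and 4.24 and 4.998 in the high-Sost clones (difference -2.56, SE 0.50). Nudcd1, the nearest expressed gene after Emc2, read 8.62, 9.14 and 8.39 against 8.02 and 8.33 (difference -0.54, SE 0.28). Gm10373 and Trhr, which lie among the 3 nearest genes on each side, were dim at 1.60 to 1.83 in every clone, and Tmem74 overlapped between the groups (difference -0.44). Named after their values were seen, Angpt1, the ligand of the Tie2 receptor, read 6.30, 6.49 and 7.17 against 2.26 and 5.23, and Oxr1, an oxidation resistance gene, 9.06, 8.87 and 7.59 against 7.04 and 7.95. Oxr1 overlaps between the groups and Angpt1 does not.

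Among dimmer neighbours the direction was mixed. Sybu, a syntaxin-binding gene a few places after Emc2, was higher in the high-Sost clones, at 6.43 and 6.19 against 4.88 to 5.63 (difference 1.05). It was also named after its value was seen, and its mean of 5.68 is below the level called expressed here. Among the 20 nearest measured genes whatever their level, 5 were lower and 3 higher without overlap, beside 7.75% and 8.26% of all genes. Of the 3 higher ones 0 were expressed. The 8 expressed genes among these 20 all had a negative difference, 4 of them without overlap. For Eif3e the low-Sost clones ran from 8.47 to 8.85 and for Nudcd1 from 8.39 to 9.14, wider than for Emc2.

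**Figure D3:**
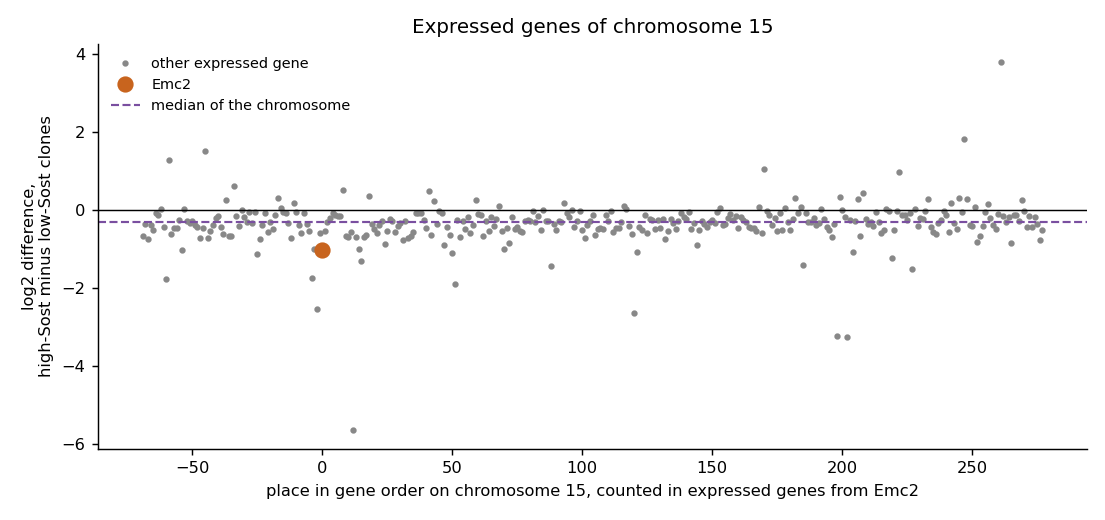
Log2 difference, high-Sost minus low-Sost clones (vertical axis), of the 347 expressed genes of chromosome 15 in gene order, counted in expressed genes from Emc2 (horizontal axis). Most points lie below 0, around the chromosome's median of -0.33 (dashed), and Emc2 (orange) lies at -1.03, with Rspo2 among the lower points beside it.

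Genes with the profile nearest to Emc2 were found by the root mean square (RMS) difference between centred profiles over the 5 clones, among expressed genes. The nearest was Dscc1, a cohesion factor (RMS 0.09), at 6.90, 7.07 and 6.82 in the low-Sost clones and 5.84 and 6.02 in the high-Sost clones. Next came Cavin4 (0.12), Zdhhc15 (0.13), Xrcc6, a DNA end-joining subunit (0.13), and Hspb6 (0.13). Dscc1 and Xrcc6 also lie on chromosome 15. Of the other expressed subunits Emc4 came nearest, at rank 243 (RMS 0.31), and the rest ranked between 1383 and 5334 of the expressed genes.

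Emc4 and Emc7 are close neighbours on chromosome 2, with 1 measured gene between them, and their differences were -0.39 and -0.13. Of the 20 expressed genes nearest to Emc4, 11 were negative, with a median of -0.04. Without overlap 6 were lower, beside 12.4% of expressed genes on chromosome 2 and 13.5% of all expressed genes. Promoter windows, 250 bases before to 50 after a start site, were held for 7 of the 10 subunits in the RefSeq table (build GRCm38.p6). Emc2, Mmgt1 and Emc8 are not among them. Emc3, Emc4 and Emc7 share the ETS core CCGGAAGT, picked after their windows were read and searched on both strands. Of all 27025 genes with a window, 4.31% hold it. The windows of Emc3, Emc4 and Emc7 hold 23, 19 and 23 CG dinucleotides, against a median of 7 over all windows. The core itself contains CG, so all genes are not a like background. The stretches around the core are shown for Emc3, Emc4 and Emc7, which carry it beside their start sites. Whether the core bears on their values was not tested. The match is in capitals, and each stretch reads along the gene's strand.
Emc3, chr6:113531624-113531673, minus strand: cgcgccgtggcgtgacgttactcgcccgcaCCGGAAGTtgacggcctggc
Emc4, chr2:112368003-112368052, minus strand: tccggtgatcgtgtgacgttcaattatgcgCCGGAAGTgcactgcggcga
Emc7, chr2:112454999-112455048, plus strand: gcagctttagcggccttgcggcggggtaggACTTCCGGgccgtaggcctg

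In Emc7 the match is on the opposite strand, so it reads ACTTCCGG. The core lies a few bases past the start site in both Emc4 and Emc7, and across it in Emc3. Emc4 differed by -0.39, Emc7 by -0.13 and Emc3 by -0.06. The cyclic AMP response element TGACGTCA was found in Emc10 (2.03% of all genes with a window). The GC box GGGCGG was in Emc1, Emc6 and Emc10 (38.2%), CCAAT in Emc6 and Emc9 (41.1%) and the YY1 letters AAGATGGCG in Emc6 (1.64%). Both strands were searched for these 5 motifs, and a match describes the letters only.

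The wider machinery of the ER membrane showed no member as far apart as Emc2. In 8 lists of insertion, translocation, glycosylation and degradation genes, 63 of 70 genes were measured and 62 were expressed. By limma 0 passed (0% of all genes did), and 1, Sec63, was under an unadjusted p of 0.05 in limma and in the unmoderated model. Their median difference was 0.03, beside 0.00 over all genes, 0 differed by 2-fold or more, and 4 were higher and 5 lower without overlap. That is 14.3%, beside 16% of all genes and 26.4% of expressed genes.

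Routes that share substrates with EMC come nearest to it in function. In the GET pathway, which delivers tail-anchored proteins (7 measured, median 0.03), Caml, part of the receptor at the ER, read 7.00, 6.55 and 6.66 in 4L, 9L and 24L and 6.22 and 6.42 in 12H and 15H (difference -0.42, SE 0.17). Get1, its partner, overlapped widely (difference 0.20, SE 0.56). In the multipass translocon, which follows EMC on multipass proteins (6 measured, median 0.00), Ccdc47 differed by 0.24 (SE 0.17) and Nomo1 by -0.24 (SE 0.21). None of these passed (adjusted p 0.737 to 0.94 in limma).

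The general secretory route gave similar sizes. Of the Sec61 translocon, the main channel (9 measured, median 0.14), Sec63, which couples the channel to the chaperone BiP, read 8.58, 8.72 and 8.45 in the low-Sost clones and 9.09 and 9.00 in the high-Sost clones (difference 0.46, SE 0.10, adjusted p = 0.677 in limma), and Sec61g differed by -0.15 (SE 0.11). For the signal recognition particle and its receptor (8 measured, median 0.05) the extremes were Srp68 at 0.28 (SE 0.16) and Srp19 at -0.19 (SE 0.15). The TRAP complex, a partner of the channel (4 measured, median -0.02), ran from Ssr4 at -0.13 to Ssr3 at 0.22. In the oligosaccharyltransferase, which adds N-glycans (12 measured, median -0.02), Magt1 differed by 0.46 (SE 0.45) and Ostc by -0.23 (SE 0.19).

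Degradation and client genes closed the set. Among ER-associated degradation genes (15 measured, median 0.05), Edem1, which routes misfolded glycoproteins to disposal, read 8.48, 9.85 and 8.55 in the low-Sost clones and 9.84 and 9.43 in the high-Sost clones and overlapped (difference 0.67, SE 0.54). Derl1, a channel component of that pathway that also lies on chromosome 15, differed by -0.37 (SE 0.27), close to its chromosome's median. Of known EMC clients 3 of 6 were measured. Tmem97, a sterol-regulated membrane protein, differed by -0.28 (SE 0.15) without overlap, Fdft1, squalene synthase, by -0.15 and Tram2 by 0.14 (SE 0.17). RNA levels of clients do not report how much client protein was inserted.

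**Figure D4:**
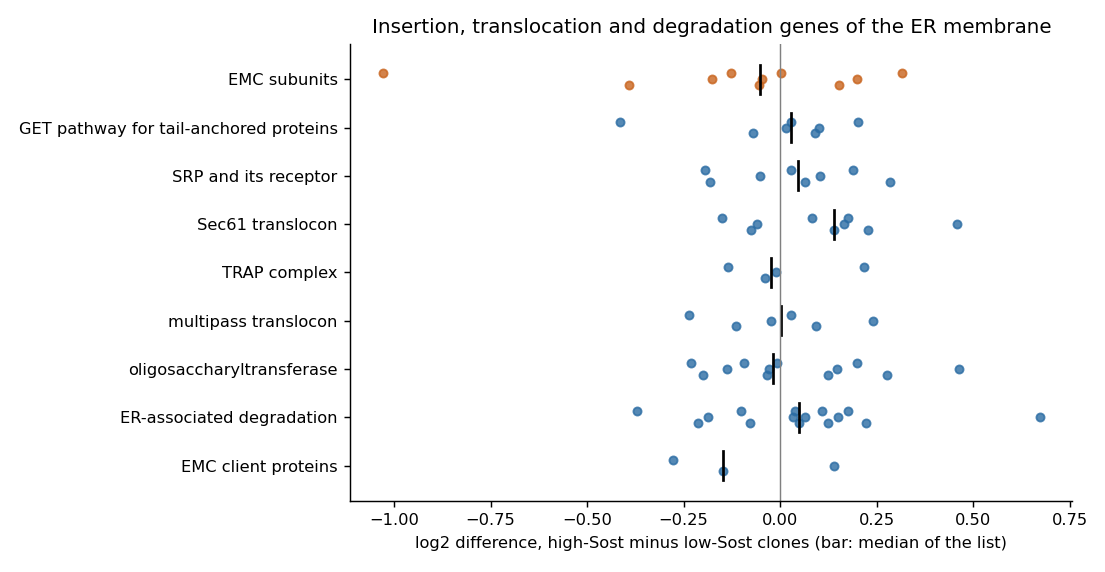
Log2 difference, high-Sost minus low-Sost clones (horizontal axis), of every measured gene in the EMC (orange) and in 8 related lists (blue), with a bar at each list's median. Emc2 at -1.03 is the leftmost point, and the 63 other genes lie between -0.42 and 0.67.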

How the data were processed

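Per the labels' protocols, biotin-labelled RNA of 5 clones went onto Affymetrix arrays, 1 for each clone. The deposited table holds log2 expression for each probe set. Among tools, RMA, R 2.15.1 and affy 1.36.1 are named in the submitters' processing notes, without roles. The sources used here state neither chip definition nor genome build. RMA brings arrays to a shared distribution, so a shift common to most genes of a clone is removed, and its median-based summary repeats values between arrays. Levels are comparable between clones, not between genes.

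Of 25206 probe sets, 23185 had 1 gene in the platform table, 0 had several and 2021 unnamed ones were left out. All 23185 matched a RefSeq gene table (GRCm38.p6), used for names, chromosomes and gene order. Groups follow the Sost label. All genes were tested with limma 3.58.1 in R 4.3.3 (group term, eBayes without trend, 3 residual and 0.701 prior degrees of freedom, two-sided, Benjamini-Hochberg, threshold 0.05). Such p-values rest on the spread between clones, and an exact permutation of 2 against 3 clones cannot go below 0.1. On simulated data the limma fit was required only to return the mean size of known differences, and its power is not given here.

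The members and the gene lists were chosen with earlier results of these data known. Named were all members, the 3 nearest genes on each side of Emc2, Mmgt2, the 5 genes nearest in profile and, per list, the widest difference each way among genes with a mean of 6 or more. Others are marked as named after their values were seen, apart from Fdft1 and the marker genes. Listed genes without a value, 7 of 70, are not analysed here. Figures were drawn with matplotlib 3.10.9.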

Additional observations from a re-analysis of the deposited data

How the results depend on the processing

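The difference of Emc2 kept its direction in all 14 alternatives. It lay between -1.05 and -1.01 with any clone left out, stayed within the spread between clones under array shifting, quantile normalization, a dim-gene filter, variance trends, array weights and an unmoderated model, and was -0.70 with chromosome medians subtracted and -0.66 with local medians subtracted, the last chosen after seeing the data. The differences of Emc3, Mmgt1, Emc6 and Emc8 changed sign in 2, 1, 1 and 6 alternatives, and those of the other subunits in 0. The count of subunits without overlap ran from 5 to 9, with 9 without 15H and 8 without 12H, where a lone clone makes non-overlap easier. The number of genes called over the whole table was 0, and became 2 with arrays shifted to 1 median, 2 with chromosome medians subtracted, 1 in the unmoderated model and 3 at an adjusted p under 0.1. Only the last holds a subunit, Emc2. Called pathway genes numbered 0 in every alternative run. Without 12H or 15H the lone high-Sost clone is assumed to vary like the others. No paired analysis was possible because the groups share no replicate number. With 5 arrays, differences under the spread between clones could not be resolved, and Emc9 is dim, so its differences may be compressed.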
